A study of Mus musculus with 21 samples.

Results

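Small nucleolar RNAs (snoRNAs), the long noncoding RNAs that host many of them, and 3 short noncoding RNAs made by RNA polymerase III were followed in 21 RNA sequencing libraries of 2 mouse cell lines. The members were the rows whose symbol begins with Snora, Snord or Snhg and a number, together with Gas5, Rpph1, Rmrp and Rn7sk. These rules selected 117 of the 24263 rows, of which 61 were C/D box snoRNAs, 35 were H/ACA box snoRNAs, 18 were host long noncoding RNAs and 3 were the polymerase III RNAs Rpph1, Rmrp and Rn7sk.

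Each of the 7 groups held 3 libraries, and every exposure lasted 24 h. BV2 is an immortalised microglial line of C57BL/6 origin, and its groups were BV2_ACR, exposed to 1 mM acrylamide (an electrophilic neurotoxicant), and BV2_PBS, exposed to the vehicle phosphate-buffered saline. 1C11NE cells are 1C11 stem cells of strain 129 taken for 12 days through a noradrenergic differentiation program. Their groups were ACR (1 mM acrylamide), PBS-CM+ACR (medium conditioned by vehicle-exposed BV2 cells, with 1 mM acrylamide added), ACR-CM (medium conditioned by BV2 cells exposed to 1 mM acrylamide), PBS-CM (medium conditioned by vehicle-exposed BV2 cells) and PBS (vehicle). The labels name different base media for the lines and do not say whether acrylamide was removed from the medium of the ACR-CM group. Both are established lines, so a group stands for cultures of 1 line, and nothing in the labels says that its 3 libraries came from separate cultures. The p-values then measure the spread between these libraries, which may be technical.

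The deposited totals were 2762287 to 7391991 counts per library. Levels are counts-per-million values (CPM) of TMM-scaled totals, where TMM is edgeR's trimmed-mean factor for library composition. Summed microglial markers (13 genes) were 6641 to 7877 CPM in BV2_ACR, 7135 to 8050 CPM in BV2_PBS and 6.68 to 25.9 CPM in 1C11NE libraries. Summed neuronal markers (8 genes) reached only 13.4 to 25.7 CPM in 1C11NE libraries, and 6 mesenchymal genes summed to 446 to 2417 CPM there, so these cells are called by their label without a claim on their type. Among the conditioned-medium libraries, replicate 1 of PBS-CM and replicate 3 of PBS-CM+ACR lay at -27.2 and -17.4 on the first principal component of the 1C11NE libraries, against 14.0 to 41.1 for the others. Results that rest on them are given with and without them.

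SnoRNAs guide the chemical modification of ribosomal RNA in the nucleolus: C/D box snoRNAs direct methylation of the ribose and H/ACA box snoRNAs direct the conversion of uridine to pseudouridine. Most mammalian snoRNAs are cut out of the introns of host genes, which encode ribosomal proteins and other parts of the translation machinery or are noncoding, as Gas5 and the Snhg genes are; spliced Gas5 and several Snhg RNAs are exported and degraded by nonsense-mediated decay when they are translated. Rpph1 is the RNA component of RNase P, which removes the leader of precursor transfer RNAs, Rmrp is the RNA of the related RNase MRP, which acts on precursor ribosomal RNA, and Rn7sk is 7SK RNA, which holds the elongation factor P-TEFb in an inactive particle. Mature snoRNAs and these 3 RNAs carry no poly(A) tail, while the host RNAs are spliced and polyadenylated.

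The libraries were made from RNA captured on oligo(dT) beads. A read on a tailless RNA therefore does not measure the mature molecules, and its origin (a polyadenylated by-product, a precursor, a run of A within the RNA or a host transcript) was not tested. Rpph1, the member with the largest response to acrylamide in BV2, is 319 bases long in GENCODE M21, and its longest run of A, in capitals, holds 2 bases. Its first 300 bases are:
Rpph1: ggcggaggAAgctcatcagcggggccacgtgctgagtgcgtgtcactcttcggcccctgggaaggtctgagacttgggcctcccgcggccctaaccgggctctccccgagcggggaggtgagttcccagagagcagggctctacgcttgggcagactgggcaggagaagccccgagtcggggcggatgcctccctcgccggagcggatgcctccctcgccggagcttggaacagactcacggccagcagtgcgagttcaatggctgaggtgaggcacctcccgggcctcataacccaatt

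The snoRNAs on which the comparisons turned are shown next because they differ in length, in their box elements and in the gene that hosts them. Capitals mark the first TGATGA (C box) and the last CTGA (D box) of C/D snoRNAs and the last ACA of H/ACA snoRNAs, all as GENCODE M21 transcripts:
Snord33: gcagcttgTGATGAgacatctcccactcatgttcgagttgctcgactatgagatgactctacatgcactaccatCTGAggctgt
Snord15b: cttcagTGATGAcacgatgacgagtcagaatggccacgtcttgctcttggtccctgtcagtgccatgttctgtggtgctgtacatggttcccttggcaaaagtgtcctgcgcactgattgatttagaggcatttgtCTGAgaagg
Snord15a: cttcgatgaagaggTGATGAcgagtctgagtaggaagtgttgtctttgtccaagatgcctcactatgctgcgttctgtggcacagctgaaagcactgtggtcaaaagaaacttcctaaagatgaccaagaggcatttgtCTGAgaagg
Snord16a: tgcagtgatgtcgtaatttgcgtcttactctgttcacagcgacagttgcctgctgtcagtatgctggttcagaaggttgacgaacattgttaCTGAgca
Snora7a: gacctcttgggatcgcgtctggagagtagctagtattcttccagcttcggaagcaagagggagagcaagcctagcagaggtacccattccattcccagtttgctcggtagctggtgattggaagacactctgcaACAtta
Snora73b: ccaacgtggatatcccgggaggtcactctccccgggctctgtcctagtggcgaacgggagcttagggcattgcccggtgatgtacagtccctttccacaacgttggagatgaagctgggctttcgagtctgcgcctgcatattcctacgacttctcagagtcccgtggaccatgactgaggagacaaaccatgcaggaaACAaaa
Snord16a, which guides methylation of ribosomal RNA and is hosted by Rpl4, has no exact TGATGA in this entry. Over all sequences, 43 of 61 C/D snoRNAs held TGATGA, 58 of 61 held CTGA in their last 15 bases, and 29 of 35 H/ACA snoRNAs had ACA 3 bases from their end. The longest run of A in a snoRNA ranged over 1 to 8 bases with a median of 3. Snord15a and Snord15b, both in Rps3, aligned with 98 identical bases of 152 (64.5%). Snora73a and Snora73b, both in Snhg3, were identical at 198 of 205 aligned bases (96.6%), so the authors' counting could have divided reads between these copies, and their separate values are uncertain.

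Rpph1 lies head to head with Parp2, which encodes a poly(ADP-ribose) polymerase. The RefSeq promoter entry of Parp2 (GRCm38.p6, chr14:50807666-50807965, plus strand) spans the whole stretch between their starts and is shown because the 2 genes share it. It opens with 106 bases of Rpph1 on the other strand, and the 125 bases between the starts occupy positions 107 to 231. The letters are those of the Parp2 strand, so TATAA reads TTATA in the direction of Rpph1. Capitals mark TATAA, 25 bases from the start of Rpph1, and ATTTGCAT, the reverse complement of the octamer ATGCAAAT, 89 bases from it:
Parp2 promoter: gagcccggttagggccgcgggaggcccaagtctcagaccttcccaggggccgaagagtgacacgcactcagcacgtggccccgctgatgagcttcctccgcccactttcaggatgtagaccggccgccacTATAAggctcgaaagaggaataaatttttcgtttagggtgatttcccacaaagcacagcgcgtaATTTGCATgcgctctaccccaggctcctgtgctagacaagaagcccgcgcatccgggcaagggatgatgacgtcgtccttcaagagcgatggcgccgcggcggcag
Searched on both strands of 32851 promoter windows of this length, the octamer occurred in 1.735% and TATAA in 24.873%. TGACNNNGC, the core of the antioxidant response element, was not in this window and occurred in 12.392% of all windows. CACGTG was in the window outside the stretch between the starts and occurred in 7.15% of all windows. These matches describe letters and do not show a bound site.

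Detection of the members followed their class and length. Of the 117 members, 38 had no more than 3 counts in any library and 31 had no more than 10 counts over all 21 libraries. The low-count filter passed 37 members in BV2 and 28 in 1C11NE. It passed 4 of the 51 snoRNAs shorter than 100 bases in either line, but 16 of the 45 longer ones in BV2 and 7 of them in 1C11NE. Of the 96 snoRNA rows, 89 had a host on the same strand in the table, 48 overlapped an annotated host exon and 41 lay within introns alone. Whether counting used strand is not given in the sources used here, so for the overlapping rows reads of the snoRNA and of a host exon cannot be told apart. Fewer cells of a type and less RNA per cell cannot be told apart in these bulk samples either.

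In BV2 cells, acrylamide was accompanied by a rise of Rpph1 and by a fall of most host RNAs. Of 37 tested members, 17 passed edgeR's quasi-likelihood test at a Benjamini-Hochberg adjusted p below 0.05: 3 were higher and 14 lower in BV2_ACR than in BV2_PBS. Among all tested genes 16.5% passed, 7.17% higher and 9.33% lower. The median log2 fold change was -0.50 over the tested members and 0.03 over all tested genes. By class, the calls were 2 higher and 10 lower of 15 host RNAs, 0 higher and 3 lower of 9 C/D snoRNAs, 0 higher and 1 lower of 11 H/ACA snoRNAs, and 1 higher of 2 polymerase III RNAs. Of the 17, 7 (Gas5, Rpph1, Snhg1, Snhg5, Snhg9, Snord15b and Snord33) also passed in each of 12 alternative analyses, and none of the 17 changed direction in any. Without BV2_ACR replicate 2, or without BV2_PBS replicate 2, 10 members passed. With library totals in place of TMM, 4 members were higher and 7 lower.

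Rpph1 had 1053, 600 and 704 counts in BV2_ACR, against 89, 67 and 109 counts in BV2_PBS. On the scaled totals these were 255, 173 and 178 CPM in BV2_ACR and 25.5, 21.7 and 30.0 CPM in BV2_PBS. Every exposed library was far above every vehicle library. The difference was 7.75-fold, with a log2 fold change of 2.95 (SE 0.17, adjusted p = 2.3e-09, edgeR's quasi-likelihood test), and it ranged over 2.77 to 3.19 in the 12 alternatives. Parp2, read from the other side of the stretch shown above, had 52.3, 59.8 and 53.3 CPM in BV2_ACR and 58.5, 58.7 and 52.1 CPM in BV2_PBS. The Parp2 groups overlapped, with a log2 fold change of -0.05 (SE 0.14, adjusted p = 0.87, edgeR).

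Rn7sk and Rmrp, the other polymerase III RNAs, were not called. Rn7sk had 8.97, 8.09 and 7.83 CPM in BV2_ACR, against 7.46, 7.79 and 8.82 CPM in BV2_PBS, and the groups overlapped. Its log2 fold change was 0.04 (SE 0.27, adjusted p = 0.95, edgeR). Rmrp failed the filter with 2 counts over the BV2_ACR libraries and 3 over the BV2_PBS libraries. Of 10 tested RNase P and RNase MRP protein subunits 1 was higher and 3 were lower. Pop1, the largest shared subunit, had 44.8, 51.2 and 34.4 CPM in BV2_ACR and 27.8, 26.0 and 23.4 CPM in BV2_PBS (log2 fold change 0.74, adjusted p = 0.0088, edgeR). The smaller shared subunits Pop5, Pop7 and Rpp30 were lower, at log2 fold changes of -0.46, -0.43 and -0.39, and lost their calls in 4, 5 and 6 of the 12 alternatives. Rpp30 lost its call on leaving out 5 of the 6 libraries one at a time. Of 7 genes of the 7SK particle and P-TEFb, 0 passed edgeR's test in either direction, 1 had an unadjusted p below 0.05, and limma-voom and DESeq2 called 0. Among all tested genes 7.17% were higher and 9.33% lower, so 0 of 7 is near the background and no result about that particle.

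**Figure D1:**
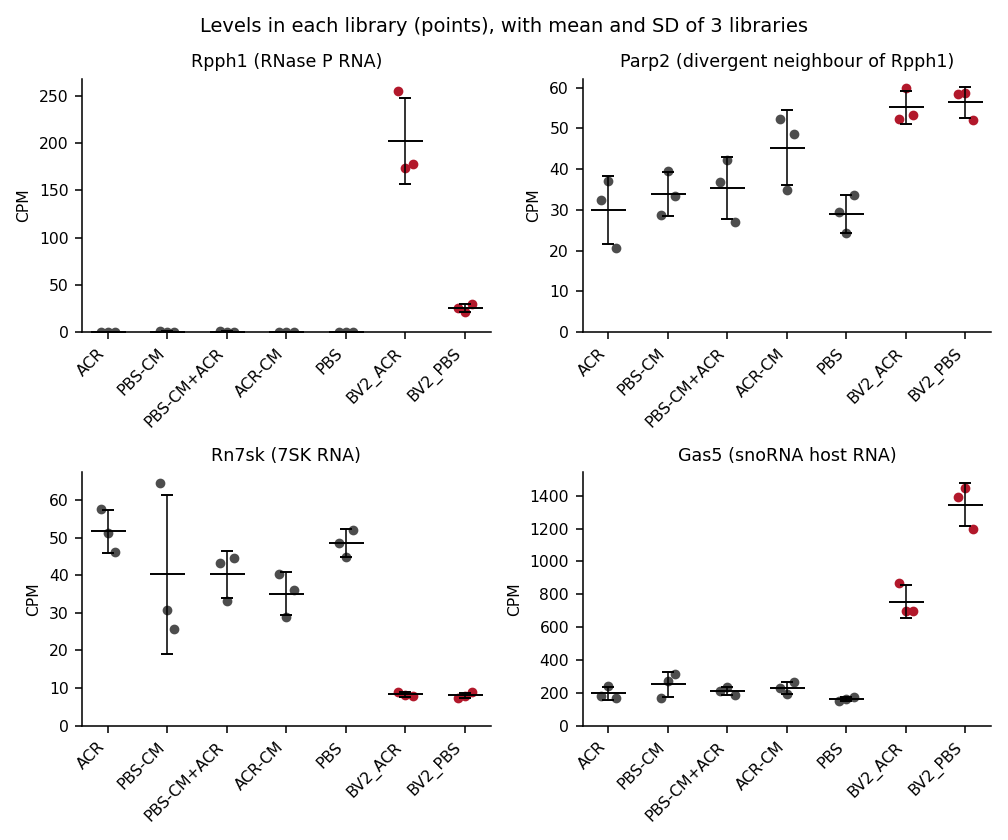
CPM of Rpph1, its neighbour Parp2, Rn7sk and Gas5 in each library of the 7 groups, with points for libraries and the mean with SD beside them. Rpph1 reached 255, 173 and 178 CPM in BV2_ACR against 21.7 to 30.0 CPM in BV2_PBS, while Parp2 and Rn7sk overlapped between those groups.

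The 18 host RNAs together gave 2797, 2099 and 1964 CPM in BV2_ACR, against 3470, 3600 and 2965 CPM in BV2_PBS, and the groups did not overlap. Gas5, the host of a series of C/D snoRNAs and named for its rise in growth-arrested cells, was the most abundant member. It had 870.1, 695 and 698 CPM in BV2_ACR and 1391, 1449 and 1199 CPM in BV2_PBS, so that every exposed library was below every vehicle library. It was 1.80-fold lower (log2 fold change -0.85, SE 0.15, adjusted p = 0.00071, edgeR).

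Snhg1, which hosts Snord22 and other C/D snoRNAs, had 252, 211 and 205 CPM in BV2_ACR and 453, 484 and 344 CPM in BV2_PBS (log2 fold change -0.95, SE 0.15, adjusted p = 0.00022, edgeR). Snhg5 had 89.9, 86.1 and 82.1 CPM in BV2_ACR and 150.01, 170 and 157 CPM in BV2_PBS (log2 fold change -0.90, SE 0.12, adjusted p = 9.7e-05, edgeR). Snhg9 had 13.1, 14.5 and 15.9 CPM in BV2_ACR and 30.1, 27.6 and 24.3 CPM in BV2_PBS (log2 fold change -0.93, SE 0.20, adjusted p = 0.0029, edgeR). Each of these 3 hosts was lower in every exposed library than in every vehicle library.

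Snhg3, the host of Snora73a and Snora73b, had 252, 153 and 141 CPM in BV2_ACR and 341, 306 and 267 CPM in BV2_PBS (log2 fold change -0.75, adjusted p = 0.0060, edgeR). The 5 other hosts that fell were Snhg15, Snhg7, Snhg17, Snhg8 and Snhg4, with log2 fold changes of -0.59, -0.67, -0.49, -0.50 and -0.46 and adjusted p-values of 0.0069 to 0.033 (edgeR). Each of Snhg7, Snhg17, Snhg8 and Snhg4 lost its call in 4 or 5 of the 12 alternatives.

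Snhg6 and Snhg10 went the other way. Snhg6 had 595, 348 and 312 CPM in BV2_ACR and 283, 255 and 233 CPM in BV2_PBS, with the highest value in BV2_ACR replicate 1 and no overlap. Its log2 fold change was 0.69 (SE 0.18, adjusted p = 0.014, edgeR), and 0.37 (adjusted p = 0.054) without that library. Snhg10 had 34.6, 26.9 and 14.9 CPM in BV2_ACR and 16.1, 13.3 and 10.7 CPM in BV2_PBS, so that its groups overlapped. Its log2 fold change was 0.92 (SE 0.27, adjusted p = 0.023, edgeR), with adjusted p = 0.11 without BV2_ACR replicate 1.

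**Figure D2:**
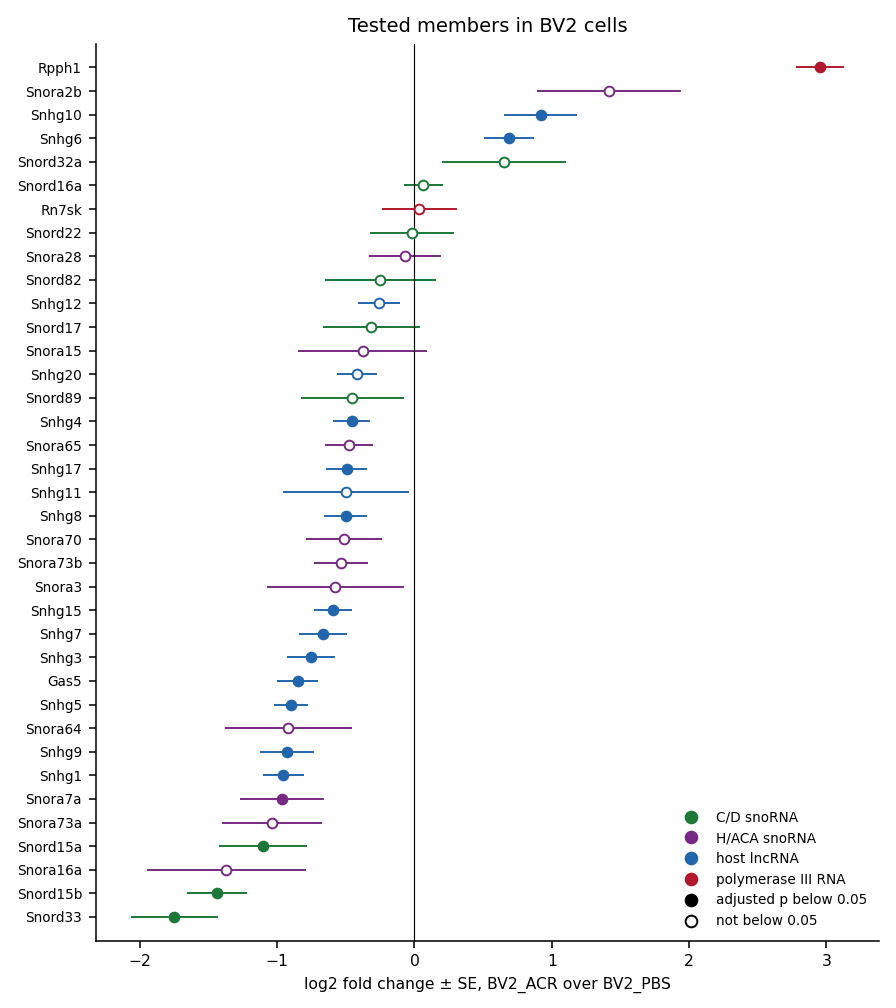
Log2 fold changes, BV2_ACR over BV2_PBS, of the 37 tested members by class, with bars of 1 SE and filled points for an adjusted p below 0.05. Rpph1 lies at 2.95, and 14 of the 17 filled points lie below 0.

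Summed C/D snoRNA levels were 144, 186 and 206 CPM in BV2_ACR and 244, 245 and 232 CPM in BV2_PBS. Summed H/ACA levels were 157, 175 and 121 CPM in BV2_ACR and 213, 222 and 175 CPM in BV2_PBS. On this scale neither sum overlapped between the groups, although the highest exposed and the lowest vehicle H/ACA sum were both 175 CPM after rounding. The separation rests on the TMM factors, and on the deposited totals both sums overlapped. The C/D rows had 815 of 4405927 counts in BV2_ACR replicate 3 and 756 of 4409723 in BV2_PBS replicate 2. The H/ACA rows had 604 of 4063398 counts in BV2_ACR replicate 2 and 634 of 4850126 in BV2_PBS replicate 3.

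Snord33, a guide for methylation of 18S ribosomal RNA that is hosted by Rpl13a, had 2.91, 4.34 and 7.83 CPM in BV2_ACR and 20.4, 16.9 and 13.2 CPM in BV2_PBS. It fell by 1.75 on the log2 scale (SE 0.31, adjusted p = 0.00092, edgeR), or 3.36-fold. Snord15b had 14.5, 19.7 and 28.6 CPM in BV2_ACR and 42.7, 59.0 and 66.7 CPM in BV2_PBS, a fall of 2.71-fold (log2 fold change -1.44, SE 0.22, adjusted p = 0.00021, edgeR). Both snoRNAs were lower in every exposed library than in every vehicle library. Snord15a had 3.63, 3.76 and 7.08 CPM in BV2_ACR and 10.9, 11.03 and 9.09 CPM in BV2_PBS (log2 fold change -1.10, adjusted p = 0.023, edgeR), and Snora7a, the H/ACA snoRNA of Rpl32, had 5.57, 6.36 and 3.79 CPM in BV2_ACR and 8.32, 11.7 and 10.5 CPM in BV2_PBS (log2 fold change -0.97, adjusted p = 0.036, edgeR). Snora7a lost its call on leaving out any 1 of the 6 libraries, and Snord15a in 5 of the 12 alternatives.

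The most abundant snoRNA of each box class was not called. Snord16a, the highest C/D snoRNA of BV2, had 85.0, 118 and 119 CPM in BV2_ACR and 104, 107 and 93.4 CPM in BV2_PBS, with overlapping groups and a log2 fold change of 0.06 (SE 0.14, adjusted p = 0.82, edgeR). Snora73b, the highest H/ACA snoRNA, whose yeast counterpart is needed to process 18S ribosomal RNA, had 65.9, 66.2 and 37.2 CPM in BV2_ACR and 80.0, 98.3 and 65.3 CPM in BV2_PBS (log2 fold change -0.54, SE 0.20, adjusted p = 0.067, edgeR). Its near copy Snora73a gave a log2 fold change of -1.04 (adjusted p = 0.058, edgeR).

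SnoRNAs and their hosts were then compared pair by pair. In BV2, 19 snoRNAs of 16 hosts were tested together with the host, and the medians of the log2 fold changes were -0.51 over the snoRNAs and -0.45 over the hosts. The snoRNA lay below its host in 10 of the 19 pairs, and 4 snoRNAs and 9 hosts were called. Snord33 lay at -1.75 with Rpl13a at -0.45 (adjusted p = 0.067), while Snord32a, of the same host, had a log2 fold change of 0.65 (adjusted p = 0.36, edgeR). Snord15b and Snord15a lay at -1.44 and -1.10 with Rps3 at -0.47 (adjusted p = 0.040, edgeR), whose call was lost in 5 of the 12 alternatives. Snord22, which overlaps an exon of Snhg1, had 8.24, 5.49 and 6.57 CPM in BV2_ACR and 7.17, 5.52 and 7.72 CPM in BV2_PBS, a log2 fold change of -0.02 beside -0.95 for its host. No test of the difference between a snoRNA and its host was run.

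**Figure D3:**
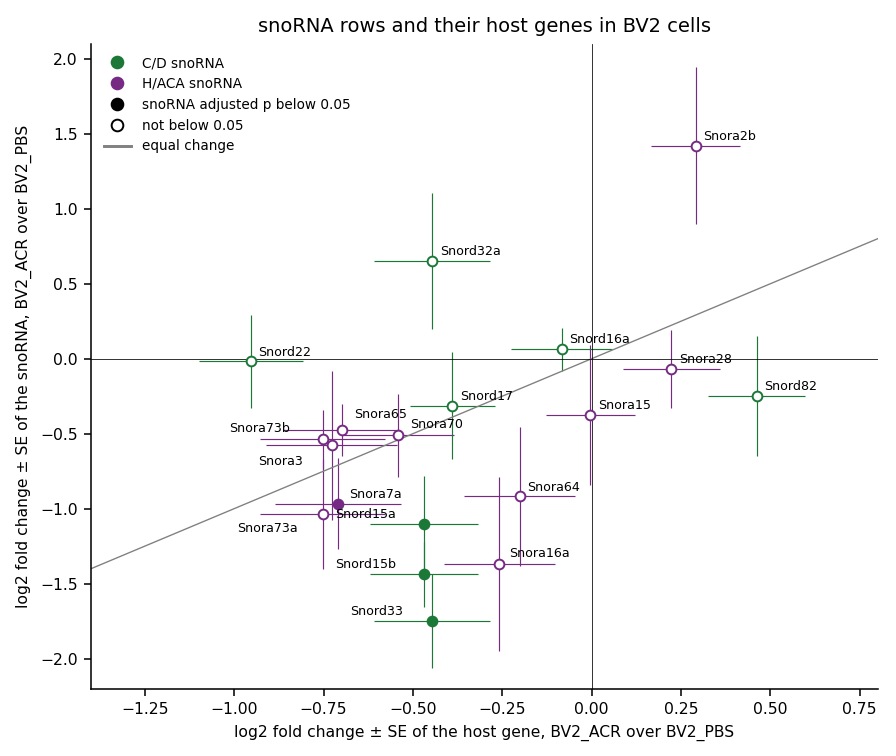
Log2 fold change, BV2_ACR over BV2_PBS, of 19 snoRNAs (vertical axis) against that of their host genes (horizontal axis), with a line of equal change. Snord33 and Snord15b lie below the line at -1.75 and -1.44, Snord22 lies near 0 above a host at -0.95, and 10 of the 19 points lie below the line.

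Other snoRNA hosts were called lower more often than higher. Of 57 tested snoRNA hosts outside the members, 5 were higher and 25 lower in BV2_ACR than in BV2_PBS, among them 1110038B12Rik, the host of Snord52 (log2 fold change -1.12), Rpl37 (-1.24) and, upwards, Ncl (0.46). With library totals only, 11 were higher and 19 lower, and 9, 10 and 11 were lower without BV2_ACR replicate 2, BV2_PBS replicate 1 and BV2_PBS replicate 2. Of 4 other noncoding hosts 3 were lower: Mir17hg, which hosts microRNAs, at -1.62, Epb41l4aos at -0.77 and Dancr at -0.61. Of 14 translation genes with a 5′ terminal oligopyrimidine tract 1 was higher (Eef2, 0.46) and 6 lower, with Naca and Fau at -0.87 each. Of 4 core C/D snoRNP proteins 2 were lower (Snu13 at -0.50 and Nop56 at -0.44), of 6 H/ACA proteins 1 (Nop10 at -0.63), and of 9 assembly factors 1 (Znhit3 at -0.61). Beside the 9.33% of all tested genes that were lower, single calls among 6 or 9 genes are no result about these groups. In the 12 alternatives the call was lost in 5 for Nop56, in 4 each for Snu13, Nop10, Ncl and Dancr, in 3 for Eef2 and in 1 for Znhit3.

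Of 16 nuclear exosome and snoRNA trimming genes 4 were lower: Exosc2 at -0.69, Exosc8 at -0.64, C1d at -0.50 and Exosc3 at -0.39. Exosc2 and Exosc8 passed in all 12 alternatives, C1d lost its call in 1 and Exosc3 in 6. Of 14 nonsense-mediated decay factors 1 was lower (Magoh at -0.68). Of 20 RNA polymerase I and nucleolar genes 3 were higher (Nop14 and Nop2 at 0.51, Ncl at 0.46) and 1 lower (Nip7 at -0.88), and in the 12 alternatives Nop14 lost its call in 2 and Nop2 in 3. Set beside the 16.5% of all tested genes called, 7.17% higher and 9.33% lower, the decay and polymerase I counts are near the background. Ribosomal protein genes host 31 of the 96 snoRNA rows, so they are themselves among the hosts outside the members. Their share of the counts moved with the hosts, at 14.2 to 17.2% in BV2_ACR and 20.4 to 22.8% in BV2_PBS. TMM factors were 0.786 to 0.900 in BV2_ACR and 0.698 to 0.749 in BV2_PBS. The part of this share and of the factors in the host result was not tested. With library totals only, the median of all genes was 0.28 in place of 0.03, and 81.5% of calls over all genes were higher in BV2_ACR in place of 43.5%.

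**Figure D4:**
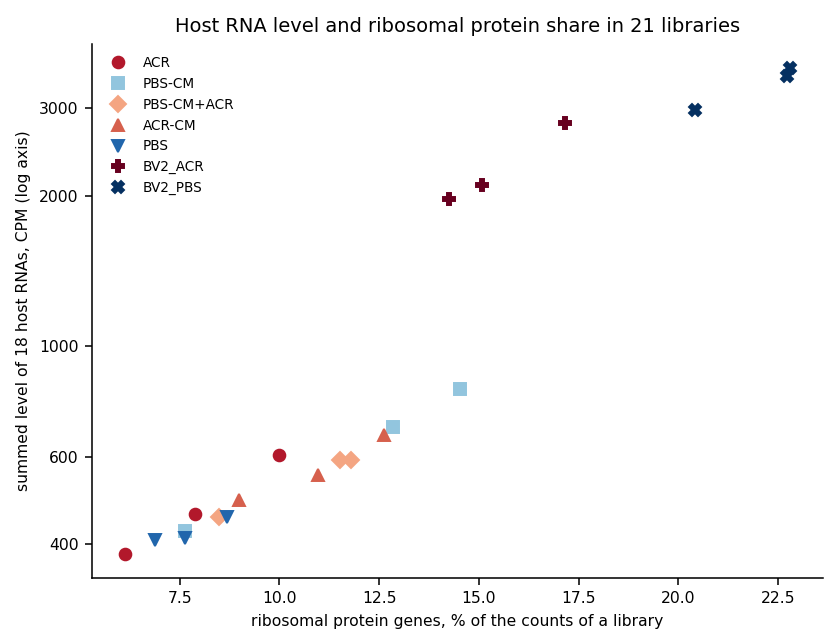
Summed level of the 18 host RNAs (CPM, log axis) against the percentage of counts on ribosomal protein genes in the 21 libraries, coloured by group. BV2_ACR libraries lie at 14.2 to 17.2% and 1964 to 2797 CPM, BV2_PBS libraries at 20.4 to 22.8% and 2965 to 3600 CPM, and 1C11NE libraries at 6.14 to 14.5% and 383.5 to 817 CPM.

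The vehicle groups were set against each other to compare the lines. Most members were higher in BV2_PBS than in PBS, while Rn7sk, Snhg14 and Snord49a were lower. Snord49a, at a log2 fold change of -2.14 (adjusted p = 0.012, edgeR), lost its call in 2 of 13 alternatives. Of 40 tested members 35 passed edgeR's test, 32 higher and 3 lower, against 79.2% of all tested genes, 36.1% higher and 43.1% lower. The filter passes a member that is high in only 1 line, so the tested members do not stand for all 117. With no filter, 49 of the 117 members passed, 45 higher and 4 lower. Over all rows with a count 11654 passed in that setting, 5266 higher and 6388 lower. The median log2 fold change there was 2.23 over the members and -0.04 over all genes. Line, strain and base medium differ together and cannot be told apart.

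Gas5 had 1391, 1449 and 1199 CPM in BV2_PBS and 149.9, 164 and 171 CPM in PBS, a log2 fold change of 3.06 (SE 0.23, adjusted p = 4.8e-11, edgeR). Of 16 tested host RNAs 14 were higher in BV2_PBS, among them Snhg15 at 4.01, Snhg3 at 3.42, Snhg6 at 3.38, Snhg17 at 3.38, Snhg1 at 3.00 and Snhg5 at 2.06. Snhg14, the long host of the Snord115 and Snord116 clusters of neurons, was the host that was lower, with a log2 fold change of -2.57 (adjusted p = 0.00049, edgeR).

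Of 11 H/ACA snoRNAs 10 were higher in BV2_PBS, and of 11 C/D snoRNAs 7 were higher and 1 lower. Among all tested genes 36.1% were higher and 43.1% lower. In the 1C11NE libraries alone the filter passed only 5 H/ACA and 6 C/D snoRNAs. The rest could enter this test through the BV2 libraries, so these counts are no result about the 2 classes. Snord16a had 104, 107 and 93.4 CPM in BV2_PBS and 1.60, 1.56 and 0.814 CPM in PBS (log2 fold change 6.18, SE 0.31, adjusted p = 8e-14, edgeR). Snord15b and Snord33 had log2 fold changes of 5.27 and 5.03. Snord16a and Snord33 were among those that failed the filter in the 1C11NE libraries alone, so their p-values here add no support to the levels. Snord22 averaged 6.80 CPM in BV2_PBS and 6.04 CPM in PBS, with a log2 fold change of 0.16 (adjusted p = 0.67, edgeR). All 4 C/D snoRNP proteins and 5 of 6 H/ACA proteins were higher in BV2_PBS, as were 10 of 11 RNase P and RNase MRP proteins, with 1 lower.

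Among the polymerase III RNAs the lines differed in opposite directions. Rpph1 had 89, 67 and 109 counts in BV2_PBS against 2, 3 and 1 counts in PBS. Pooled over the 3 libraries, these were 18.6 CPM of the deposited totals in BV2_PBS (exact binomial 95% interval 16.4 to 20.96) and 0.328 in PBS (0.120 to 0.714), intervals that cover counting error only. The fitted log2 fold change was 6.32 (SE 0.41, adjusted p = 3.5e-12, edgeR). Rpph1 failed the filter in the 1C11NE libraries alone and entered this fit through the BV2 libraries. Its p-value therefore adds no support to the counts. Rn7sk had 7.46, 7.79 and 8.82 CPM in BV2_PBS and 48.6, 44.9 and 52.1 CPM in PBS, a log2 fold change of -2.59 (SE 0.27, adjusted p = 1.3e-08, edgeR). Rmrp had 3 counts over BV2_PBS and 22 over PBS.

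**Figure D5:**
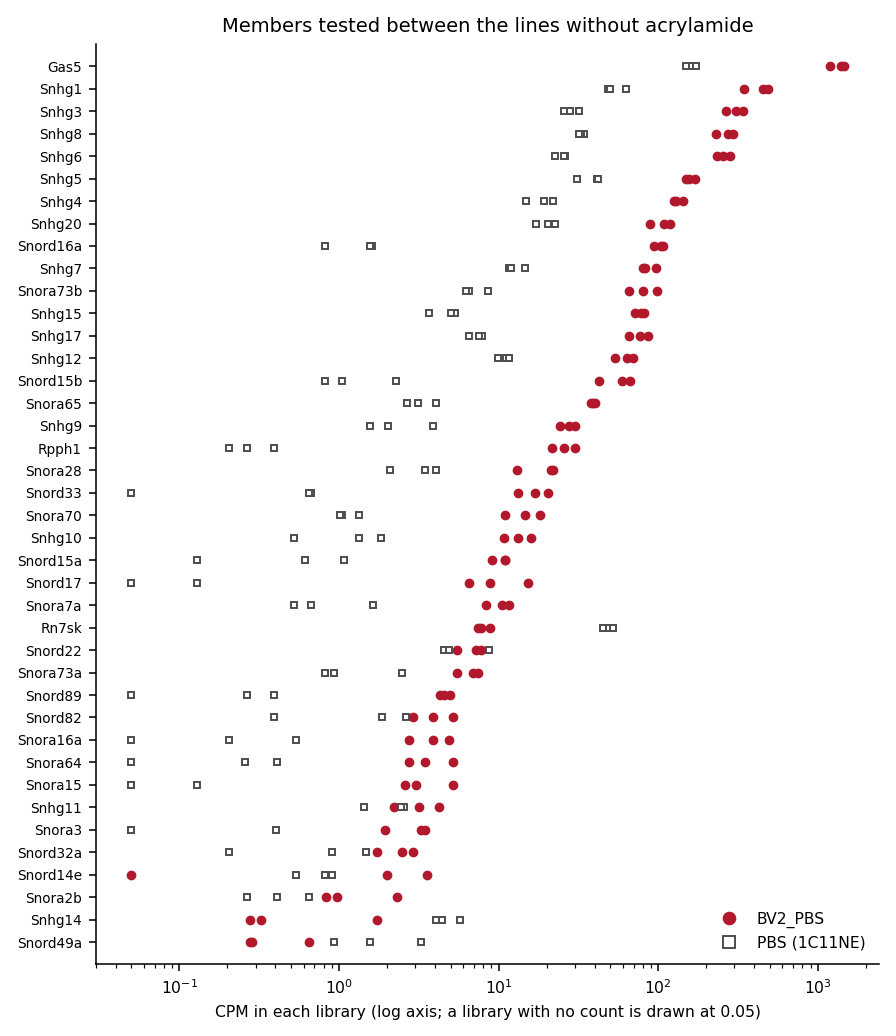
CPM per library (log axis, no count drawn at 0.05) of the 40 members tested between the lines, ordered by mean CPM in BV2_PBS, with BV2_PBS and PBS libraries as points. Rpph1, Snord16a and Gas5 are higher in BV2_PBS, Rn7sk is higher in PBS at 44.9 to 52.1 CPM, and Snord22 overlaps.

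In 1C11NE cells exposed to acrylamide no member changed by the same test. Of 28 tested members 0 passed edgeR's test for ACR against PBS, where 1.18% of all tested genes did, and 2 had an unadjusted p below 0.05. limma-voom and DESeq2 each called 1. Snora73b had 12.8, 14.99 and 16.9 CPM in ACR and 6.55, 6.23 and 8.55 CPM in PBS, a log2 fold change of 1.07 (SE 0.26, adjusted p = 0.054, edgeR), and it was the member called by both other tools. Snhg4 had 31.4, 36.1 and 25.0 CPM in ACR and 19.4, 14.9 and 21.8 CPM in PBS (log2 fold change 0.72, SE 0.21, adjusted p = 0.12, edgeR). Neither pair of groups overlapped. Gas5 had 180.3, 241 and 169 CPM in ACR and 149.9, 164 and 171 CPM in PBS, with overlap and a log2 fold change of 0.27 (adjusted p = 0.75, edgeR). Rpph1 had 0, 2 and 1 counts in ACR and 2, 3 and 1 counts in PBS, and was not tested in this line.

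Medium conditioned by vehicle-exposed BV2 cells was compared with vehicle. For PBS-CM against PBS 0 of 28 members passed edgeR's test, against 4.55% of all tested genes, and 9 had an unadjusted p below 0.05. limma-voom called 0 and DESeq2 called 2. The median log2 fold change was 0.51 over the tested members and -0.00 over all genes, and 22 of the 28 were above 0. Gas5 had 168, 274 and 316 CPM in PBS-CM and 149.9, 164 and 171 CPM in PBS (log2 fold change 0.64, SE 0.24, adjusted p = 0.11, edgeR). Its lowest PBS-CM value came from replicate 1, the library that lay apart. Snhg20 had 23.8, 39.2 and 35.9 CPM in PBS-CM and 17.2, 20.2 and 22.4 CPM in PBS (log2 fold change 0.73, adjusted p = 0.055, edgeR), and Snhg3 and Snhg6 had log2 fold changes of 0.68 and 0.80. Without PBS-CM replicate 1, 10 of 30 tested members passed, 9 higher and Rn7sk lower. Over all genes 3233 passed there, in place of 571. Without both libraries that lay apart 12 of 30 members passed, 11 higher and Rn7sk lower, and 4479 genes passed over all genes. The rise in calls was therefore not particular to the members. Counts on ribosomal protein genes were 7.63 to 14.5% in PBS-CM and 6.87 to 8.70% in PBS, and mesenchymal markers summed to 1150 to 2417 CPM in PBS-CM and 1329 to 1782 CPM in PBS. Microglial markers summed to 13.7 to 18.01 CPM in PBS-CM, with a count for 10 of 13 genes, and to 6.68 to 11.4 CPM in PBS, with a count for 7 of 13, and did not overlap. The ACR group, which had no conditioned medium, summed to 12.8 to 17.0 CPM with a count for 6 of 13 genes. Those ACR sums also lay above PBS and overlapped PBS-CM. Aif1, C1qa and Ptprc were at 0 in PBS-CM and in PBS. Ctss, a lysosomal protease of microglia, had 15, 7 and 12 counts in PBS-CM and 0 counts in each PBS library (adjusted p = 0.033, edgeR). Neuronal markers, at 22.6 to 25.7 CPM in PBS-CM and 18.5 to 22.1 CPM in PBS, and noradrenergic markers, at 6.43 to 7.38 CPM in PBS-CM and 8.96 to 12.3 CPM in PBS, did not overlap either. The part of any of these in the result was not tested.

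Within conditioned medium no member passed. For PBS-CM+ACR against PBS-CM 0 of 28 passed edgeR's test (0.375% of all genes, 2 with an unadjusted p below 0.05), and for ACR-CM against PBS-CM 0 passed (0.924% of all genes, 3 with an unadjusted p below 0.05). For ACR-CM against PBS-CM+ACR 0 passed (0.0159% of all genes, 1 with an unadjusted p below 0.05). limma-voom and DESeq2 called 0 in each. Snora73b had 13.9, 19.3 and 10.1 CPM in PBS-CM+ACR, 19.3, 15.7 and 20.4 CPM in ACR-CM and 9.68, 10.1 and 15.7 CPM in PBS-CM. The lowest ACR-CM and the highest PBS-CM value met at 15.7 CPM, and the PBS-CM+ACR values overlapped both. Snora28, an H/ACA snoRNA of Eif5, had a log2 fold change of 1.06 for ACR-CM against PBS-CM (adjusted p = 0.24, edgeR). Snhg10 had a log2 fold change of -1.64 for PBS-CM+ACR against PBS-CM (adjusted p = 0.51, edgeR), at 1 to 18 counts per 1C11NE library. The difference between the acrylamide effects in conditioned and in plain medium passed for 0 of 28 members and 0% of all genes, with 1 member at an unadjusted p below 0.05, and limma-voom and DESeq2 called 0.

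The acrylamide effects of the lines were then tested against each other. The difference, BV2 minus 1C11NE, passed edgeR's test for 2 of 40 members, Snora73b and Snhg4, and for 0.567% of all genes. Its log2 value was -1.61 for Snora73b (SE 0.36, adjusted p = 0.041) and -1.18 for Snhg4 (SE 0.26, adjusted p = 0.042). Both had fitted log2 fold changes above 0 in ACR and below 0 in BV2_ACR. Within the lines Snora73b was called in neither (adjusted p = 0.054 in ACR and 0.067 in BV2_ACR, edgeR), and its BV2 groups overlapped. Snhg4 was called in BV2 but not in ACR (adjusted p = 0.12, edgeR). Gas5 gave -1.12 (adjusted p = 0.084) and Snhg1 gave -1.03 (adjusted p = 0.12, edgeR). Rpph1 gave 3.46 (SE 1.02, adjusted p = 0.10, edgeR), with 0 to 4 counts in each 1C11NE library. Over 20 alternatives it ranged over 2.99 to 4.23 with adjusted p-values of 0.040 to 0.32. It passed in 3 of them: DESeq2 (adjusted p = 0.040), no low-count filter (0.047) and only the libraries compared (0.049). Gas5 also passed in these 3, and Snhg1 with DESeq2 and with only the libraries compared. Both also passed without the 2 libraries that lay apart.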

How the data were processed

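Read counts per gene symbol, which the authors deposited as 1 table of 24263 rows and 21 libraries, were used as raw counts. Oligo(dT) beads selected the RNA before enzymatic fragmentation and sequencing on an Ion GeneStudio S5, per the labels' protocols. Bowtie2 2.2.5 is named in the submitters' processing notes. The build, annotation, counting program and strand setting were not given in the sources used here. Totals were 2762287 to 7391991 counts, so that 3 counts correspond to 0.389 to 0.973 CPM. Intervals and such floors cover counting error only.

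Genes were filtered with filterByExpr, scaled by TMM and tested with edgeR 4.0.16 (glmQLFit, robust) in R 4.3.3. P-values were adjusted by Benjamini-Hochberg over all genes of a fit: 12550 genes in the 15 1C11NE libraries, 10890 in the 6 BV2 libraries and 13569 in all 21 libraries. The joint fit gave the levels, the comparison of the vehicle groups and the difference between lines. Calls are at an adjusted p below 0.05. limma 3.58.1 (voom), DESeq2 1.42.0, other scalings, no filter, a replicate block, smaller fits and leaving out libraries were alternatives. The test was checked on simulated counts.

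Named are Gas5, Rpph1, Rmrp, Rn7sk, every called member, the 12 members highest in mean CPM, the 5 highest snoRNAs per box class and called genes of the other lists. Others named were chosen after their values were seen, Parp2 among them. The members and lists were chosen with earlier results of these data known. Hosts were assigned by position in GENCODE M21, where 115 of the 117 members had an entry. Libraries were not paired by replicate number in the main test. Deviations of same-numbered libraries correlated above 0.1 in 8 of 30 pairs in 1C11NE (-0.547 to 0.439) and 1 of 3 in BV2 (0.0286 to 0.117). The BV2 values were all positive, so a weak pairing there is not excluded.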

Additional observations from a re-analysis of the deposited data

Results flagged for a closer look

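The acrylamide effect differed between the lines for 2 members by a test of the difference itself (edgeR's quasi-likelihood test, joint fit). For Snora73b the effect in BV2 minus that in 1C11NE was -1.61 on the log2 scale (adjusted p = 0.041). Over 20 alternatives it ranged over -1.74 to -1.38 with adjusted p-values of 0.00085 to 0.11, and the call was lost in 9. Snora73b is uncertain as a row of its own because of its near copy Snora73a. For Snhg4 the difference was -1.18 (adjusted p = 0.042), with a range of -1.30 to -0.94, adjusted p-values of 0.0022 to 0.14 and the call lost in 12 of 20.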

How the results depend on the processing

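Depth limits what can be said of many members, since 38 of 117 had at most 3 counts in every library. For ACR against PBS, 0 members passed, against 1 with no filter, 2 without both libraries that lay apart (replicate 1 of PBS-CM, replicate 3 of PBS-CM+ACR), and 1 each with only the libraries compared, limma-voom or DESeq2; leaving out 1 library gave 0. For PBS-CM against PBS, 0 passed, against 4 with no filter, 12 without both those libraries, 2 with DESeq2 and 0 to 10 on leaving out 1 library, where 10 came without PBS-CM replicate 1. For BV2_ACR against BV2_PBS, 17 passed, against 11 with library totals only and 10 to 17 on leaving out 1 library. The replicate block gave 20 there and 34 for BV2_PBS against PBS, where 35 passed and leaving out 1 library gave 35 to 37. For the difference between lines, 2 passed, against 1 with library totals only, 4 with no filter, 1 with the replicate block, 7 without both libraries that lay apart, 5 with only the libraries compared, 5 with DESeq2 and 0 to 2 on leaving out 1 library. With library totals the median of all genes was -0.87 in place of -0.25 for BV2_PBS against PBS. Over all genes, leaving out 1 library gave 913 to 1883 calls in BV2 and 106 to 3233 for PBS-CM against PBS. Direction changed for values near 0 without a call in BV2: Snord22 at 0.22 and Parp2 at 0.21 with library totals, while leaving out 1 library gave -0.17 to 0.12 for Snord22, -0.11 to 0.0074 for Parp2, -0.019 to 0.10 for Rn7sk and -0.0033 to 0.22 for Snord16a. For BV2_ACR against BV2_PBS the fit already holds only the libraries compared, so that alternative gives no other value. The cause of these shifts was not tested.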

Other observations

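Other RNAs made without a poly(A) tail were also read. Of 46 tested RNAs on a list of them outside the members, 0 were higher and 8 lower in BV2_ACR than in BV2_PBS by edgeR's test, and 12 had an unadjusted p below 0.05. Among all tested genes 7.17% were higher and 9.33% lower. The list includes histone genes, and besides Rny3 and Rnu6 the lower calls were all histone genes. Of these, Hist1h1e, Hist1h4i and Hist2h2be kept their calls in all 12 alternatives, while Hist1h2bh, Hist1h3c and Hist2h2bb lost theirs in 7, 6 and 4. The list leaves out n-R5s134, a tailless RNA that was higher. The Y RNA Rny3 had 2.67, 2.31 and 2.78 CPM in BV2_ACR and 7.17, 4.22 and 8.27 CPM in BV2_PBS (log2 fold change -1.35), and Rnu6, a row for U6 spliceosomal RNA, lay at -0.58. Both lost their calls on leaving out 4 of the 6 libraries one at a time, and over the 12 alternatives Rnu6 lost it in 5 and Rny3 in 4. The row n-R5s134, a 5S ribosomal RNA gene and a further product of RNA polymerase III, was chosen after its values were seen. Rny3 and Rnu6 are also made by RNA polymerase III and were lower, and Rn7sk was not called. The n-R5s134 row was higher in BV2_ACR, as Rpph1 was. It had 174, 145 and 187 counts in BV2_ACR and 54, 52 and 51 counts in BV2_PBS, a log2 fold change of 1.49 (SE 0.18, adjusted p = 2.6e-05, edgeR), and its call was kept in all 12 alternatives, at 1.41 to 1.75. In the 1C11NE libraries it had 20 to 182 counts. 5S ribosomal RNA genes are near-identical copies, so its reads could belong to other copies.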
